A study of Mus musculus with 8 samples.

Results

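Lung capillary endothelial identity was followed through 9 genes, *Apln*, *Aplnr*, *Car4*, *Fibin*, *Emcn*, *Plvap*, *Gpihbp1*, *Kit* and *Ptprb*. They were chosen by symbol, matched to the Ensembl mouse gene identifiers of the count tables, and are 9 of 55416 genes listed there. All 9 passed the filter on low counts, which 18560 genes passed.

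The alveolar capillary of the mouse lung is built from a pair of endothelial cell types. Aerocytes are large, thin cells apposed to the alveolar epithelium and specialised for gas exchange, and they are known by *Car4*, *Apln*, *Fibin* and a high level of *Emcn*. General capillary cells regulate vascular tone, take part in repair and can give rise to aerocytes, and they are known by *Aplnr*, *Gpihbp1*, *Plvap* and *Kit*, while *Ptprb* is common to vascular endothelium.

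The study asked how YW3-56, an inhibitor of protein arginine deiminases, alters the response of mice to endotoxin shock caused by lipopolysaccharide (LPS). Sequenced lung RNA came from 3 control mice (mice 1, 2 and 4), 3 LPS mice (mice 1, 6 and 7) and 2 mice given both agents, called dual-treated here (mice 2 and 5). All were female C57BL/6 mice (C57BL/6J in the methods) aged 6 to 8 weeks with no engineered allele named. Control mice received dimethyl sulfoxide into the tail vein and later saline into the peritoneum, LPS mice received 35 mg/kg LPS, and dual-treated mice received 10 mg/kg YW3-56 in dimethyl sulfoxide shortly before 35 mg/kg LPS. The methods name no dimethyl sulfoxide for the LPS mice, so solvent and inhibitor cannot be told apart when dual-treated mice are set against LPS mice. Tissue from 1 side of the lung was taken about 24 h after LPS, without sorting of cells.

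Total counts per library ran from 19061949 to 20908608. Levels are read counts scaled to library size after TMM normalization (CPM). Differences are fitted log2 fold changes (log2FC) with their standard error (SE). A gene was called when its p, adjusted after Benjamini and Hochberg over all 18560 genes, was under 0.05 in the quasi-likelihood test of edgeR, whose adjusted p is given throughout. In whole lung tissue, fewer cells of a type and less RNA per cell cannot be told apart.

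LPS mice 6 and 7 stood apart from the other 6 libraries in transcripts of other tissues. The 12 squamous epithelium markers summed to 727 and 2054 CPM in these mice and to between 2.08 and 26.5 CPM elsewhere, with *Krt13* the most abundant and no marker at 0 in all libraries. The 12 skeletal muscle markers, led by *Acta1*, summed to 533 and 1353 CPM in them and to between 6.94 and 31.8 CPM elsewhere. Counts over the 9 genes are therefore also given without these mice, as are list counts with LPS where they differed.

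The endothelial markers fixed for the tissue were present in every library. The 20 genes of a pan-endothelial list, led by *Cdh5*, summed to between 7188 and 7951 CPM in control lungs, between 3305 and 4111 CPM in LPS lungs, and to 6541 and 6746 CPM in dual-treated lungs.

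In LPS lungs, 8 of the 9 identity genes were lower than in control lungs and none was higher, and *Car4* was the gene that was not called. Across all genes, 33.9% were called lower and 32.6% higher in this comparison. The median log2FC was -2.02 over the 9 genes and -0.01 over all tested genes. Without LPS mice 6 and 7, 7 of the 9 were called lower and none higher. The called differences ran from -4.20 for *Apln* to -0.48 for *Gpihbp1*.

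In dual-treated lungs, 4 of the 9 genes, *Aplnr*, *Gpihbp1*, *Kit* and *Ptprb*, were lower than in control lungs and none was higher, against 7.02% of all genes called lower and 9.13% called higher. Only 2 of the 9 were called lower without control mouse 1, control mouse 4 or dual-treated mouse 2, and 3 without control mouse 2. The number of all genes called lower fell from 1302 to 700, 580 and 733 without control mouse 1, 2 or 4 and to 430 without dual-treated mouse 2, and the number called higher from 1695 to 1088, 973, 977 and 790. Where either dual-treated mouse was left out, here and below, the other stood alone for its group and the spread came from the other groups, so a call gained or lost there rests on 1 library of that group. The count was 5 lower and 0 higher without LPS mice 6 and 7, with *Fibin* added (-0.57, adjusted p = 0.0279). The median log2FC was -0.57 over the 9 genes and 0.00 over all genes. Set directly against LPS lungs, dual-treated lungs were higher in 6 genes, *Apln*, *Fibin*, *Emcn*, *Plvap*, *Kit* and *Ptprb*, and lower in none, against 31.7% of all genes called higher and 27.4% called lower. The medians there were 1.03 and 0.06. Without LPS mice 6 and 7, which leaves LPS mouse 1 alone with the spread taken from the other groups, 3 genes were called higher and 1, *Gpihbp1*, lower. The comparisons share libraries and are given side by side. These directions depend on whether libraries are scaled to the pan-endothelial list, which assumes that list to be level. Over the 9 genes and 3 comparisons, 10 values changed sign with that scaling. With RLE factors 1 value changed sign, and with library size only 1. DESeq2 kept the direction and call of 26 values and gained 1 call. Scaling libraries to the pan-endothelial list moved the median of all genes by 1.85 with LPS and by -1.66 between the treated groups. With LPS, 3 of the 9 genes were then called higher and 2 lower, against 14825 and 847 of all 18560 genes. Between the treated groups 2 were called higher and 5 lower, against 790 and 14024 of all genes.

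**Figure D1:**
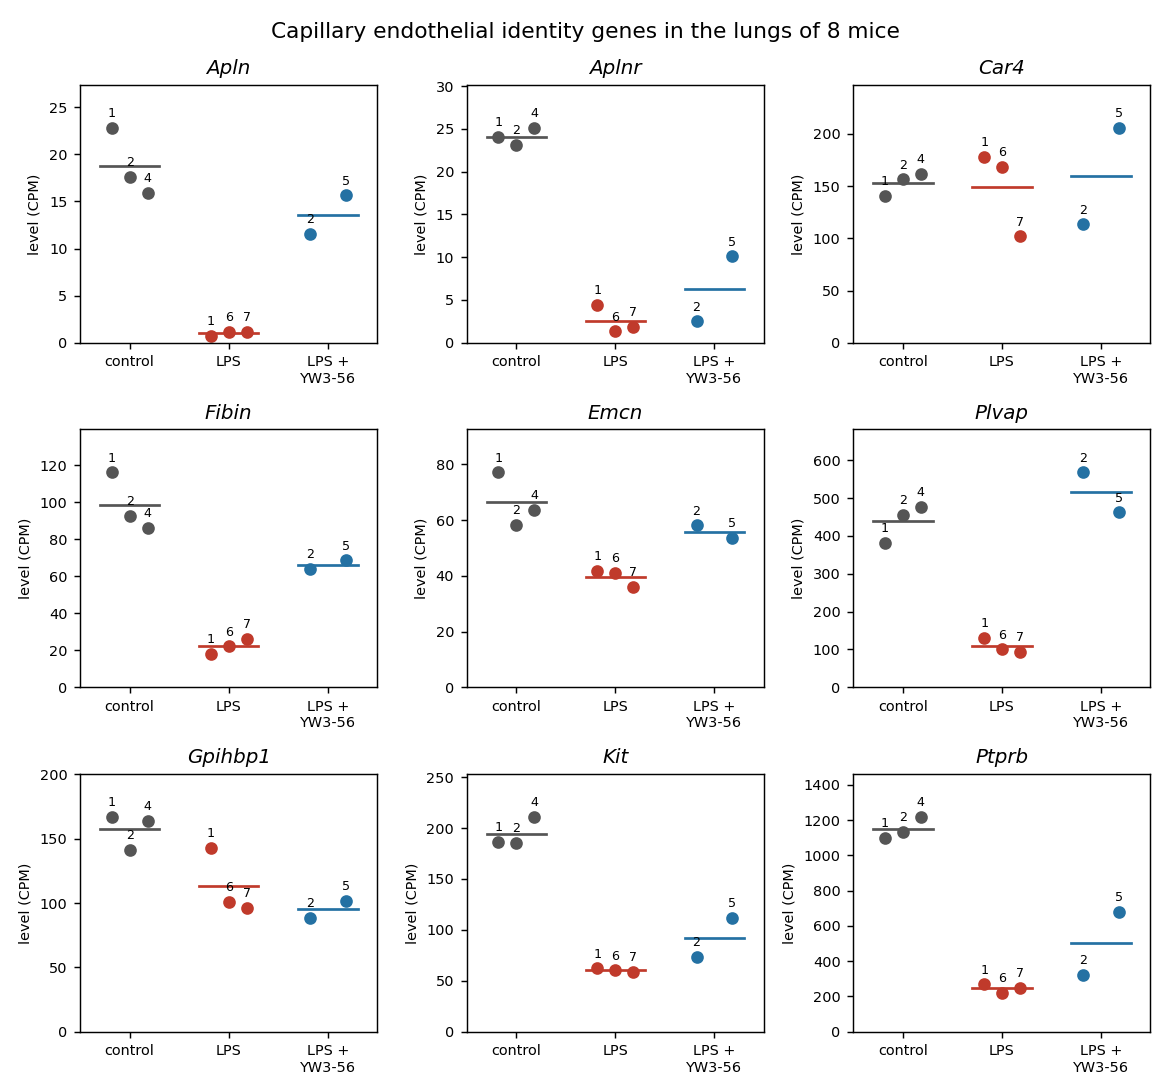
Levels of the 9 capillary endothelial identity genes in CPM (vertical axes, each from 0) in control, LPS and dual-treated (LPS + YW3-56) lungs. Points are single mice with their numbers and lines are group means; *Apln* sat between 0.712 and 1.17 CPM in LPS lungs against at least 11.5 CPM in the other mice, while *Car4* overlapped between all groups.

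*Apln* encodes apelin, a secreted peptide made by aerocytes, and *Aplnr* its G protein-coupled receptor, which in the lung marks general capillary cells. *Apln* (ENSMUSG00000037010, chromosome X, 47114019 to 47123775, minus strand of GRCm39) stood at 22.8, 17.6 and 15.9 CPM in control mice 1, 2 and 4, at 0.712, 1.16 and 1.17 CPM in LPS mice 1, 6 and 7, and at 11.5 and 15.6 CPM in dual-treated mice 2 and 5. Every LPS mouse was far below every other mouse, and of the dual-treated mice, mouse 5 lay just under the lowest control mouse and mouse 2 further below. These LPS values rest on 12, 20 and 21 counts. *Apln* fell by 4.20 on the log2 scale with LPS (SE 0.26, adjusted p = 1.58e-06). Dual-treated lungs were 3.73 above LPS lungs (SE 0.27, adjusted p = 8.14e-06), and its log2FC between dual-treated and control lungs was -0.47 (SE 0.23, adjusted p = 0.212). That last value lay between -0.73 and -0.29 when 1 mouse was left out.

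*Aplnr* (ENSMUSG00000044338, chromosome 2, 84966569 to 84970267, plus strand) stood at 24, 23.1 and 25.1 CPM in control lungs, at 4.39, 1.33 and 1.90 CPM in LPS lungs, and at 2.5 and 10.1 CPM in dual-treated lungs. The control mice were close to one another and above all treated mice, whereas dual-treated mouse 2 lay inside the LPS range and mouse 5 above it. The receptor fell by 3.25 with LPS on the log2 scale (SE 0.52, adjusted p = 0.000437), or by 3.89 without LPS mouse 1. It fell by 1.93 with the dual treatment (SE 0.56, adjusted p = 0.0436). That second call was lost when any 1 control mouse or dual-treated mouse 2 was left out, with log2FC between -1.96 and -1.28, and the value was -3.30 without dual-treated mouse 5. The difference between dual-treated and LPS lungs was 1.32 (SE 0.56, adjusted p = 0.0681). It was called without LPS mouse 1, at 1.95, and without dual-treated mouse 2, at 1.98, and it was -0.03 without dual-treated mouse 5. With library size only it was called at 1.66 (adjusted p = 0.0215), and under the pan-endothelial scaling it was -0.37.

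*Apela*, which encodes a further ligand of the apelin receptor, had at most 0.614 CPM and was not tested.

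Among aerocyte genes, *Car4* encodes carbonic anhydrase 4, a membrane-anchored enzyme that interconverts carbon dioxide and bicarbonate at the capillary surface. *Car4* (ENSMUSG00000000805, chromosome 11, 84848020 to 84856879, plus strand) stood at 141, 156 and 162 CPM in control lungs, at 178, 169 and 102 CPM in LPS lungs, and at 113 and 206 CPM in dual-treated lungs. The groups overlapped throughout, with LPS mouse 7 and dual-treated mouse 2 the lowest and dual-treated mouse 5 the highest. Its log2FC was -0.03 with LPS (SE 0.24, adjusted p = 0.908), 0.06 with the dual treatment (SE 0.27, adjusted p = 0.91) and 0.10 between the treated groups (SE 0.27, adjusted p = 0.777). The sign with LPS changed without LPS mouse 7, to 0.19, without both LPS mice 6 and 7, to 0.22, and with libraries scaled to the pan-endothelial list, to 1.82, which was called. That scaling also turned the difference between the treated groups to -1.59 (adjusted p = 0.000199), and it was -0.16 without LPS mice 6 and 7. Without dual-treated mouse 5 the other differences were -0.46 and -0.42.

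With LPS 66.5% of all genes were called in either direction, 33.9% lower and 32.6% higher. Under the pan-endothelial scaling 14825 of 18560 genes were called higher and 847 lower. Of the 11 other tested carbonic anhydrase genes, 2 were higher and 5 lower with LPS, with a median log2FC of -0.26. The counts were 2 and 2 of 13 without LPS mice 6 and 7, and 5 and 0 of 11 under the pan-endothelial scaling. *Car13* was higher with LPS (log2FC 2.30, adjusted p = 2.39e-05), as was *Car12* (3.89, adjusted p = 0.000994), which had under 1 CPM in control lungs. *Car2*, an enzyme of the cytosol, was lower with LPS (-0.49, adjusted p = 0.0264; 1.36 under the pan-endothelial scaling) and with the dual treatment (-0.97, adjusted p = 0.0101). The first call was lost without control mouse 2 or 4 or LPS mouse 7, with values between -0.49 and -0.32, and without LPS mice 6 and 7 (-0.25), and the second without dual-treated mouse 2 (-0.79). *Car2* was chosen after its values were seen.

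*Fibin* encodes a secreted protein first described in the fin bud. *Fibin* (ENSMUSG00000074971, chromosome 2, 110191262 to 110193528, minus strand) stood at 116, 92.7 and 86.2 CPM in control lungs, at 18, 22.1 and 26.3 CPM in LPS lungs, and at 64.2 and 68.7 CPM in dual-treated lungs. The groups did not overlap, and the dual-treated mice lay between the others. *Fibin* was 4.44-fold lower with LPS (log2FC -2.15, SE 0.16, adjusted p = 3.72e-06; -0.30 and not called under the pan-endothelial scaling) and higher in dual-treated lungs than after LPS alone (log2FC 1.58, SE 0.17, adjusted p = 5.81e-05), where the pan-endothelial scaling gave -0.08. Against control its log2FC in dual-treated lungs was -0.57 (SE 0.17, adjusted p = 0.0508), and DESeq2 called it at -0.59. Without LPS mouse 1 or LPS mouse 7 it was also called, at -0.57 each time.

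*Emcn* encodes endomucin, a sialomucin of the luminal endothelial surface that limits leukocyte contact. *Emcn* (ENSMUSG00000054690, chromosome 3, 137046794 to 137138999, plus strand) stood at 77.1, 58.3 and 63.5 CPM in control lungs, at 41.6, 41.1 and 35.9 CPM in LPS lungs, and at 58.1 and 53.6 CPM in dual-treated lungs. The LPS mice were lowest without overlap, and dual-treated mouse 2 lay next to control mouse 2. Its decrease with LPS was smaller than that of *Fibin* (log2FC -0.75, SE 0.12, adjusted p = 0.000423), and the sign flipped under the pan-endothelial scaling, to 1.10. The difference between the treated groups was 0.50 (SE 0.13, adjusted p = 0.00948), or -1.16 under that scaling. This last call was lost without dual-treated mouse 2 (0.41, adjusted p = 0.0662) and without LPS mice 6 and 7 (0.42, adjusted p = 0.0873).

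The 6 other aerocyte markers, led by *Tbx2*, summed to between 749 and 844 CPM in control lungs, between 299 and 331 CPM in LPS lungs, and to 575 and 645 CPM in dual-treated lungs. With LPS, 4 of the 6 were lower and 1 was higher, with a median log2FC of -1.70, against 33.9% and 32.6% of all genes. The lower genes were the endothelin receptor gene *Ednrb* (-2.04, adjusted p = 3.53e-05), the transcription factor gene *Tbx2* (-1.84, adjusted p = 9.85e-06), *Prx* (-1.46, adjusted p = 7.65e-06) and the sulfotransferase gene *Chst1* (-2.28, adjusted p = 3.97e-05). Under the pan-endothelial scaling none of these 4 was called lower: *Tbx2* (0.02) and *Prx* (0.40) changed sign, and *Ednrb* (-0.19) and *Chst1* (-0.41) lost their calls. The higher gene was *Cdkn2b*, a cell cycle inhibitor (1.49, adjusted p = 3.95e-05), and *Rprml* was not called (-1.56, adjusted p = 0.0597). With the dual treatment, *Ednrb* (-1.52, adjusted p = 0.00382) and *Tbx2* (-0.74, adjusted p = 0.0219) were lower than in control lungs. *Prx* stood at 331 and 278 CPM in dual-treated lungs against 277, 279 and 267 CPM in control lungs. The *Ednrb* value was -2.16 without dual-treated mouse 5, and the *Tbx2* call was lost without control mouse 2 or 4 or dual-treated mouse 2, with values between -0.77 and -0.54. *Rprml* was called with LPS at -2.19 without LPS mouse 1 and at -1.58 without either dual-treated mouse. *Prx* and *Rprml* were chosen after their values were seen.

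Among general capillary genes, *Plvap* encodes the protein of the diaphragms that span endothelial fenestrae and caveolae. *Plvap* (ENSMUSG00000034845, chromosome 8, 71948674 to 71964506, minus strand) stood at 382, 455 and 478 CPM in control lungs, at 130, 100 and 93.9 CPM in LPS lungs, and at 568 and 462 CPM in dual-treated lungs. The LPS mice were lowest without overlap, and the dual-treated mice were in or above the control range. *Plvap* was 4.06-fold lower with LPS (log2FC -2.02, SE 0.16, adjusted p = 5.17e-06; -0.17 and not called under the pan-endothelial scaling) and 4.77-fold higher in dual-treated lungs than after LPS alone (log2FC 2.25, SE 0.17, adjusted p = 9.95e-06), a difference that shrank to 0.61 under that scaling (adjusted p = 0.00608). Its log2FC between dual-treated and control lungs was 0.23 (SE 0.17, adjusted p = 0.397), and between 0.046 and 0.34 when 1 mouse was left out. Its exons share 834 bases with *Gtpbp3* on the opposite strand, and the strand setting of the counting was not given in the sources used here. *Gtpbp3* had 34.6, 38.6 and 39.5 CPM in control lungs, 12.2, 14.6 and 12.4 CPM in LPS lungs, and 26.6 and 32.4 CPM in dual-treated lungs, below *Plvap* in every library.

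*Gpihbp1* encodes the protein that binds lipoprotein lipase and carries it across capillary endothelium to the lumen. *Gpihbp1* (ENSMUSG00000022579, chromosome 15, 75468474 to 75471331, plus strand) stood at 167, 141 and 164 CPM in control lungs, at 143, 101 and 96.3 CPM in LPS lungs, and at 88.7 and 101 CPM in dual-treated lungs. LPS mouse 1 was inside the control range and LPS mice 6 and 7 were below it, as were the dual-treated mice. Its log2FC was -0.48 with LPS (SE 0.15, adjusted p = 0.0209; 1.37 under the pan-endothelial scaling) and -0.73 with the dual treatment (SE 0.18, adjusted p = 0.022). The first call was lost without control mouse 1 or 4 or LPS mouse 6 or 7, with values between -0.45 and -0.36, and without both LPS mice 6 and 7 the log2FC was -0.14. The second was lost without control mouse 1 or 4 or dual-treated mouse 2, with values between -0.72 and -0.66. Between the treated groups the log2FC was -0.25 (SE 0.17, adjusted p = 0.236) and, without LPS mice 6 and 7, -0.59 (adjusted p = 0.0137). It was called at -1.91 under the pan-endothelial scaling (adjusted p = 2.07e-06) and was 0.09 with library size only. When 1 mouse was left out, this difference lay between -0.37 and -0.06.

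Beside the lipoprotein lipase pathway stand the 33.9% of all genes called lower and 32.6% called higher with LPS. Under the pan-endothelial scaling 14825 of all 18560 genes were called higher and 847 lower. Of the 7 other tested genes of the pathway, 1 was higher and 3 were lower with LPS. Without LPS mice 6 and 7 the counts were 0 and 3, and under the pan-endothelial scaling 5 and 1. The higher one was *Angptl4*, an inhibitor of the lipase (log2FC 1.35, SE 0.35, adjusted p = 0.00686), a call lost without LPS mice 6 and 7 (0.84, adjusted p = 0.162). The lower ones were *Cd36*, the fatty acid receptor and most abundant gene of the pathway (adjusted p = 1.34e-06; -0.15 and not called under the pan-endothelial scaling), *Lmf1*, which matures the lipase and flips under the pan-endothelial scaling (-0.61, adjusted p = 0.0056), and *Angptl8* (-3.70, adjusted p = 6.68e-05). *Cd36* stood at 956, 1014 and 986 CPM in control lungs, at 279, 220 and 240 CPM in LPS lungs, and at 647 and 657 CPM in dual-treated lungs. *Lpl* itself stood at 229, 315 and 264 CPM in control lungs, at 291, 341 and 392 CPM in LPS lungs, and at 578 and 355 CPM in dual-treated lungs. *Lpl* was above control in dual-treated lungs (log2FC 0.79, adjusted p = 0.0368) and was not called with LPS (0.34, adjusted p = 0.149). The first of these calls was lost without any 1 control mouse, LPS mouse 6 or dual-treated mouse 2, with values between 0.37 and 0.92. *Fabp4*, a fatty acid binding protein gene of the same list, was uneven within groups, at 36.8, 203 and 28.3 CPM in control lungs, at 57.3, 133 and 192 CPM in LPS lungs, and at 741 and 38.2 CPM in dual-treated lungs. *Car3*, a carbonic anhydrase gene, stood at 9.74, 54.7 and 11.6 CPM, at 4.75, 24.7 and 47.7 CPM, and at 106 and 11.4 CPM in the same mice. Control mouse 2, LPS mouse 7 and dual-treated mouse 2 were the highest of their groups for *Lpl*, *Fabp4* and *Car3*. The part of this in the *Lpl* result was not tested. *Fabp4* and *Car3* were chosen after their values were seen.

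*Kit* encodes the receptor for stem cell factor and marks general capillary cells as well as mast cells. *Kit* (ENSMUSG00000005672, chromosome 5, 75735576 to 75817404, plus strand) stood at 186, 185 and 211 CPM in control lungs, at 62.2, 60.3 and 58.7 CPM in LPS lungs, and at 73.3 and 112 CPM in dual-treated lungs. No groups overlapped, and dual-treated mouse 2 was close to the LPS mice. *Kit* was 3.22-fold lower with LPS (log2FC -1.69, SE 0.15, adjusted p = 9.23e-06; 0.17 under the pan-endothelial scaling) and 2.10-fold lower with the dual treatment (log2FC -1.07, SE 0.17, adjusted p = 0.00279). The difference between the treated groups was 0.61 (SE 0.16, adjusted p = 0.00856), or -1.06 under the pan-endothelial scaling. It was not called without dual-treated mouse 5 (0.26, adjusted p = 0.123) or without LPS mice 6 and 7 (0.56, adjusted p = 0.0869).

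Stem cell factor itself, *Kitl*, stood at 216, 249 and 205 CPM in control lungs, at 35.1, 30.5 and 32.1 CPM in LPS lungs, and at 115 and 109 CPM in dual-treated lungs. Ligand and receptor were both lowest in LPS lungs. *Kitl* fell by 2.78 on the log2 scale with LPS (SE 0.11, adjusted p = 3.20e-07), and its log2FC was -0.997 with the dual treatment (adjusted p = 0.000743). The 8 mast cell markers summed to between 47.5 and 66.7 CPM in control lungs, between 364 and 397 CPM in LPS lungs, and to 99.2 and 79.6 CPM in dual-treated lungs, most of it *Hdc*, which other myeloid cells also express. The mast cell protease gene *Cpa3* had at most 2.9 CPM in any library and was chosen after its values were seen. The part of these markers in the *Kit* result was not tested.

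*Ptprb* encodes a receptor tyrosine phosphatase of endothelium that acts on the angiopoietin receptor Tie2 and on VE-cadherin. *Ptprb* (ENSMUSG00000020154, chromosome 10, 116111428 to 116225440, plus strand) stood at 1100, 1133 and 1218 CPM in control lungs, at 268, 221 and 247 CPM in LPS lungs, and at 324 and 681 CPM in dual-treated lungs. No groups overlapped, and the dual-treated mice differed more from each other than the mice of either other group. *Ptprb* was 4.68-fold lower with LPS (log2FC -2.23, SE 0.24, adjusted p = 3.07e-05). Under the pan-endothelial scaling that value was -0.37 and not called. With the dual treatment *Ptprb* was 2.29-fold lower (log2FC -1.19, SE 0.26, adjusted p = 0.0152). When 1 mouse was left out, the latter value ran from -1.86, without dual-treated mouse 5, to -0.79. The difference between the treated groups was 1.03 (SE 0.25, adjusted p = 0.00608), or -0.65 under the pan-endothelial scaling, and it was not called without dual-treated mouse 5 (0.38, adjusted p = 0.0601) or without LPS mice 6 and 7 (0.90, adjusted p = 0.0842).

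The Tie2 pathway around *Ptprb* was lower with LPS in 3 of 4 other tested genes and higher in 1, against 33.9% of all genes called lower and 32.6% higher. The receptor gene *Tek*, which encodes Tie2, stood at 302, 371 and 372 CPM in control lungs, at 36.6, 27.5 and 43.7 CPM in LPS lungs, and at 164 and 279 CPM in dual-treated lungs. It fell by 3.28 with LPS (adjusted p = 3.20e-06), and its co-receptor gene *Tie1* fell by 2.97 (adjusted p = 1.77e-06). *Angpt1*, the agonist, was lower with LPS (log2FC -2.41, adjusted p = 7.42e-06) and with the dual treatment (-0.85, adjusted p = 0.0268). The latter call was lost without control mouse 2 or 4 or dual-treated mouse 2, with values between -0.84 and -0.58. *Angpt2*, which can block Tie2 signalling, stood at 43.2, 51.7 and 43.2 CPM in control lungs, at 77, 74.3 and 69.6 CPM in LPS lungs, and at 24.9 and 22.8 CPM in dual-treated lungs. The LPS mice were above and the dual-treated mice below all control mice for *Angpt2*.

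All 4 other general capillary markers were lower with LPS, with a median log2FC of -4.08, against 33.9% of all genes. They were *Clec1a* (-6.54, adjusted p = 8.37e-08), the incretin receptor gene *Glp1r* (-5.36, adjusted p = 1.20e-05), the semaphorin gene *Sema3c* (-2.79, adjusted p = 2.09e-06) and *Cd93* (-1.17, adjusted p = 0.000332), which was 0.68 under the pan-endothelial scaling. *Clec1a* stood at 175, 187 and 169 CPM in control lungs, at 2.14, 1.39 and 2.18 CPM in LPS lungs, and at 96.1 and 120 CPM in dual-treated lungs. *Glp1r* differed between the dual-treated mice, with 26.6 CPM in mouse 2 and 108 CPM in mouse 5. All 4 markers were higher in dual-treated lungs than after LPS alone, against 31.7% of all genes, but under the pan-endothelial scaling *Cd93* was at -0.18 and *Sema3c*, at 0.36, was not called. Below control in dual-treated lungs were *Clec1a* (-0.71, adjusted p = 0.0111) and *Sema3c* (-0.76, adjusted p = 0.0283). Both calls were lost without dual-treated mouse 2 (-0.59 and -0.48), and that of *Sema3c* also without control mouse 2 or 4 (-0.73 and -0.72). Over all omissions of 1 mouse the *Sema3c* value ran from -1.18 to -0.48. *Glp1r* was called below control, at -2.25, when mouse 2 alone stood for the dual treatment, with the spread taken from the other groups.

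The order of the 9 levels was compared per length, as CPM per kilobase of exon. In control lungs the mean level per length was highest for *Plvap* (114 ± 13.0, SD, n = 3), followed by *Ptprb* (80.2 ± 4.26), *Gpihbp1* (61.5 ± 5.53), *Car4* (44.7 ± 3.21), *Fibin* (43.4 ± 6.98), *Kit* (20.5 ± 1.52), *Emcn* (10.1 ± 1.47), *Aplnr* (6.51 ± 0.273) and *Apln* (4.96 ± 0.954). Only *Car4* and *Fibin* overlapped among neighbours in that order. In LPS lungs *Gpihbp1* (44.2 ± 9.99) and *Car4* (43.6 ± 12.1) came first and overlapped, and *Plvap* (28.1 ± 5.02) overlapped *Car4*. After them came *Ptprb* (17.1 ± 1.63), *Fibin* (9.77 ± 1.85), *Kit* (6.38 ± 0.189), *Emcn* (5.99 ± 0.48), *Aplnr* (0.686 ± 0.44) and *Apln* (0.268 ± 0.069), of which *Kit* and *Emcn* overlapped. In dual-treated lungs *Plvap* (134 ± 19.5, SD, n = 2) was again first and apart from the rest, and *Car4*, *Gpihbp1*, *Ptprb* and *Fibin* overlapped one with the next. *Kit* (9.76 ± 2.86) overlapped *Emcn* (8.46 ± 0.48), and *Apln* (3.59 ± 0.767) was above *Aplnr* (1.7 ± 1.45), the reverse of their control order.

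**Figure D2:**
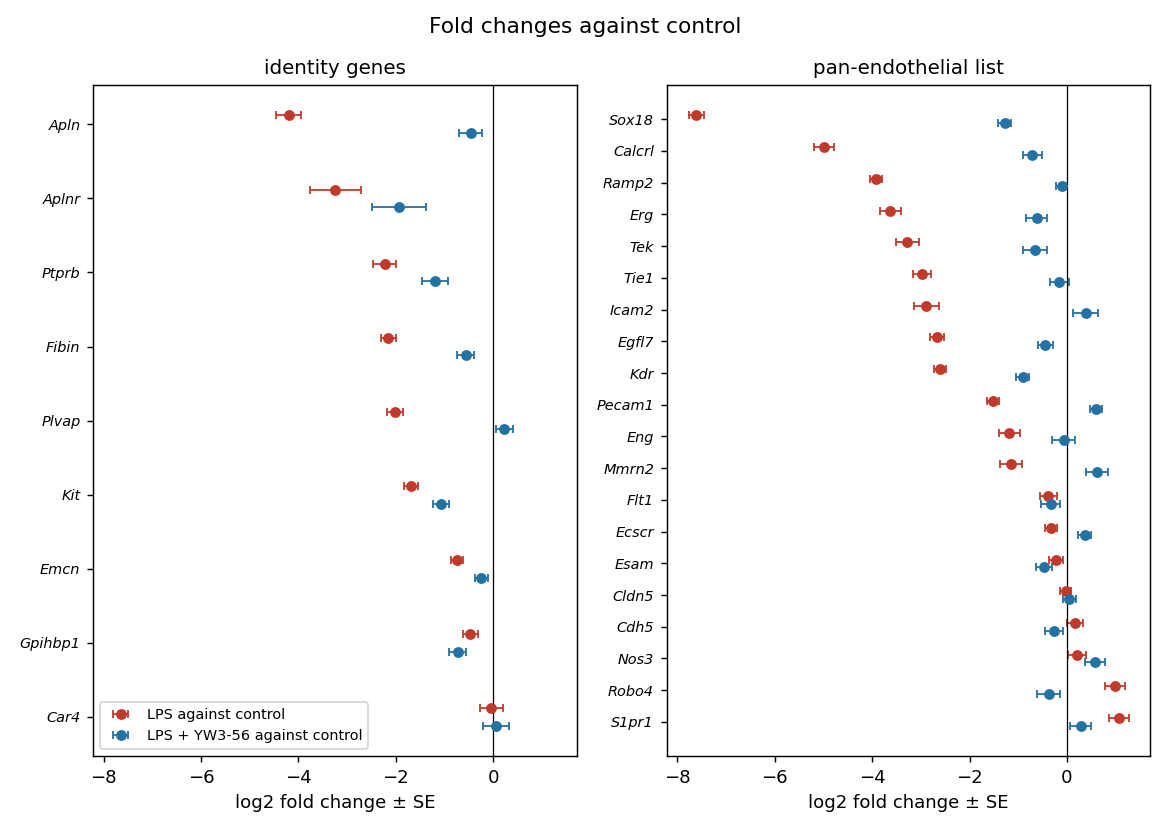
Fitted log2 fold changes against control with their standard errors (horizontal axes) for the 9 identity genes and for the 20 genes of the pan-endothelial list, in LPS and in dual-treated lungs. The LPS differences spread from -7.61 for *Sox18* to 1.06 for *S1pr1* within the pan-endothelial list.

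Genes shared by endothelial cells differed in direction. Of the 20 pan-endothelial genes, 13 were lower, 2 higher and 5 not called with LPS, with a median log2FC of -1.35, against 33.9% of all genes lower and 32.6% higher. Without LPS mice 6 and 7, 12 were lower and 3 higher. With all mice and libraries scaled to this list, which assumes it to be level, 11 were higher and 9 lower. Of all 18560 genes 14825 were then higher and 847 lower. That scaling holds the mean of the 20 genes level, so their split in both directions is built in. Under TMM the largest decreases were those of the transcription factor gene *Sox18* (-7.61, adjusted p = 2.11e-08) and the adrenomedullin receptor gene *Calcrl* (-4.99, adjusted p = 3.20e-07). *Ramp2*, also an adrenomedullin receptor gene (-3.91, adjusted p = 1.04e-07), and the transcription factor gene *Erg* (-3.62, adjusted p = 1.17e-06) came next. *Robo4* (0.98, adjusted p = 0.00212) and *S1pr1* (1.06, adjusted p = 0.00124) were higher, and the junction genes *Cdh5*, *Cldn5* and *Esam* were not called, nor were *Flt1* and *Nos3*. *Cdh5* was called higher, at 0.51, without LPS mice 6 and 7 (adjusted p = 0.0276), *Esam* was called at -0.39 without LPS mouse 1, and *Flt1* at -0.39 without either dual-treated mouse. Apart from *Cdh5*, these genes were chosen after their values were seen.

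The dual-treated lungs differed from control lungs in 4 of the 20 pan-endothelial genes, near the share of all genes called (16.1%). *Sox18* (-1.28, adjusted p = 0.00029), *Calcrl* (-0.71, adjusted p = 0.0334) and *Kdr*, which encodes a receptor for vascular endothelial growth factor (-0.90, adjusted p = 0.00252), were lower. The *Calcrl* call was lost without any 1 control mouse or dual-treated mouse 2, with values between -0.77 and -0.43, and under the pan-endothelial scaling (-0.53). Over all omissions of 1 mouse the *Calcrl* value ran from -1.13 to -0.43. *Pecam1*, an adhesion molecule gene, was higher, at 1073 and 912 CPM against 618, 679 and 672 CPM in control lungs and 254, 218 and 213 CPM in LPS lungs. Its call against control (0.60) was lost without control mouse 1 or 2 or dual-treated mouse 2, with values between 0.44 and 0.62. With dual-treated mouse 2 as the only mouse of its group, a comparison whose spread came from the other groups, *Tie1* (-0.60), *Tek* (-1.11) and *Flt1* (-0.78) were called lower and *S1pr1* (0.64) higher than in control lungs. Between the treated groups 13 of the 20 were higher in dual-treated lungs and 2, *Robo4* and *S1pr1*, were lower, against 31.7% and 27.4% of all genes. Under the pan-endothelial scaling 9 were higher and 8 lower there, against 790 and 14024 of all 18560 genes. That scaling holds the mean of these 20 genes level, so a split in both directions is built in. Against control, that scaling gave 4 higher and 2 lower in dual-treated lungs, against 2658 and 612 of all genes.

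The identity genes were also set against the endothelial background, as their log2 CPM minus the mean log2 CPM of the 20 pan-endothelial genes in the same library. On this scale *Car4* lay at -0.83, -0.77 and -0.79 in control lungs, at 1.21, 1.26 and 0.48 in LPS lungs, and at -0.95 and -0.25 in dual-treated lungs. *Car4* was thus above the list mean in each LPS mouse and below it in each other mouse. *Apln* lay at -3.45, -3.92 and -4.13 in control lungs, at -6.57, -5.81 and -5.84 in LPS lungs, and at -4.24 and -3.96 in dual-treated lungs, so that it was lower in LPS lungs on this scale too. The LPS minus control difference was 1.78 for *Car4*, 1.36 for *Gpihbp1*, 1.11 for *Emcn*, 0.17 for *Kit*, -0.18 for *Plvap*, -0.30 for *Fibin*, -0.38 for *Ptprb*, -1.52 for *Aplnr* and -2.24 for *Apln*.

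These relative values depend on the reference, because the list itself fell in LPS lungs while *Cdh5* was not called, or was called higher (0.51) when LPS mice 6 and 7 were left out. Relative to *Cdh5* alone, the LPS minus control difference was -0.23 for *Car4*, -0.65 for *Gpihbp1* and -0.89 for *Emcn*. Relative to *Pecam1* alone it was 1.45, 1.03 and 0.79 in the same order. With libraries scaled to the pan-endothelial list in place of TMM, 2 of the 9 genes, *Apln* and *Aplnr*, were called lower with LPS and 3, *Car4*, *Gpihbp1* and *Emcn*, higher.

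Markers of other vessels and of neighbouring cells moved in the same libraries. Haemoglobin transcripts stood at 0.046 and 0.040% in dual-treated mice 2 and 5 and between 0.13 and 0.41% in every other library. The part of all these in the results was not tested. Beside the counts with LPS here and in the next paragraphs stand the 33.9% of all genes called lower and 32.6% called higher. Beside those under the pan-endothelial scaling stand 14825 of 18560 genes called higher and 847 called lower. The 4 venous markers, led by *Vwf*, were all lower with LPS and summed to between 804 and 1036 CPM in control lungs, between 222 and 264 CPM in LPS lungs, and to 492 and 808 CPM in dual-treated lungs. Of the 7 arterial markers, led by *Efnb2*, 4 were lower with LPS, and they summed to between 507 and 551 CPM in control lungs, between 209 and 256 CPM in LPS lungs, and to 231 and 374 CPM in dual-treated lungs. All 5 pericyte markers and all 6 alveolar type 2 markers were lower with LPS. The pericyte markers, led by *Pdgfrb*, summed to between 320 and 353 CPM in control lungs, between 119 and 144 CPM in LPS lungs, and to 270 and 272 CPM in dual-treated lungs. The alveolar type 2 markers, led by *Sftpc*, summed to between 27158.8 and 34426.8 CPM in control lungs, between 11573.4 and 21465.7 CPM in LPS lungs, and to 13850.6 and 25140.4 CPM in dual-treated lungs. Of the 7 fibroblast markers, led by *Inmt*, 1 was higher and 4 were lower with LPS, and they summed to between 4352 and 4618 CPM in control lungs, between 1254 and 1371 CPM in LPS lungs, and to 2554 and 3185 CPM in dual-treated lungs. *Inmt* made up most of this fall, from at least 2935 CPM in control lungs to at most 177 CPM in LPS lungs, and the median log2FC of the list was -0.53. Of the 6 alveolar type 1 markers, led by *Ager*, 3 were lower and 0 higher, with sums between 4335 and 4659.9 CPM in control lungs, between 2155 and 3791 CPM in LPS lungs, and of 2371 and 3119.9 CPM in dual-treated lungs. When LPS mice 6 and 7 were left out, 3 alveolar type 2 and 3 fibroblast markers were lower and none higher. Under the pan-endothelial scaling the alveolar type 2 markers were 4 higher and 2 lower with LPS, the fibroblast markers 6 and 1, the alveolar type 1 markers 3 and 2, the arterial markers 3 and 2, the venous markers 1 and 2, and the pericyte markers 1 and 1.

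The 6 lymphatic endothelial markers, led by *Lyve1*, were 2 higher and 1 lower with LPS (1 and 3 without LPS mice 6 and 7, 5 and 0 under the pan-endothelial scaling), with a median log2FC of -0.25. They summed to between 348 and 470 CPM in control lungs, between 1615 and 2150 CPM in LPS lungs, and to 591 and 339 CPM in dual-treated lungs. Most of this was *Lyve1*, which stood at 334, 273 and 209 CPM in control lungs, at 2056, 1787 and 1504 CPM in LPS lungs, and at 513 and 248 CPM in dual-treated lungs.

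Markers of activation and of immune cells differed among lists. Of the 9 alveolar macrophage markers in the files, led by *Chil3*, 1 was higher and 4 were lower with LPS, or 1 and 3 without LPS mice 6 and 7, with a median log2FC of -0.60. They summed to between 601 and 875 CPM in control lungs and between 522 and 970 CPM in LPS lungs. In dual-treated lungs the sums were 999 and 1599 CPM. Under the pan-endothelial scaling 5 of these 9 markers were higher and 0 lower with LPS. Of the 5 tested mast cell markers, 1 was higher and 1 lower with LPS, or 1 and 0 of 6 without LPS mice 6 and 7. Under the pan-endothelial scaling 2 of the 5 mast cell markers were higher and 0 lower with LPS. The 5 endothelial activation genes, led by *Icam1*, were all higher with LPS. These genes summed to 2856, 2028 and 2028 CPM in LPS lungs and to 1010 and 630 CPM in dual-treated lungs. In control lungs the sums were between 495 and 504 CPM. The 5 leukocyte markers, led by *Lcp1*, summed to between 389 and 447 CPM in control lungs, between 628 and 912 CPM in LPS lungs, and to 887 and 1243 CPM in dual-treated lungs. The 8 neutrophil markers, led by *S100a9*, were all higher with LPS (7 of 8 without LPS mice 6 and 7) and summed to between 182 and 319 CPM in control lungs, between 2330 and 3392 CPM in LPS lungs, and to 1847 and 2436 CPM in dual-treated lungs. The part of these markers in the results was not tested.

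Likeness of profile was measured as the root mean square difference of log2 CPM over the 8 libraries after centring, against 12162 other genes of at least 5 CPM on average. Nearest to *Apln* were *Plscr4* (0.198), *Ramp2* (0.223) and *Fgf11* (0.227), and nearest to *Aplnr* were *Nptx1* (0.387), *Itga8* (0.427) and *Cox6b2* (0.440). Nearest to *Car4* were *2410004I01Rik* (0.109), the water channel gene *Aqp1* (0.128) and *Ifi27* (0.153). *Kit* was nearest to *Nectin1* (0.0811), *Maob* (0.103) and *Wnt10b* (0.109), and *AI504432* (0.149) and *Fkbp4* (0.168) were near *Ptprb*. *Fibin* was nearest to *Adcy9* (0.133), *Ybey* (0.137) and *Cep68* (0.137), and *Emcn* to *Mrpl38* (0.0552), *Erlin1* (0.0781) and *Sdf2* (0.0870). *Plvap* was nearest to *Nprl2* (0.126), *Cpap* (0.194) and *Ubox5* (0.200), and *Gpihbp1* to *Zc2hc1c* (0.0772), *Spock2* (0.0799) and *C130074G19Rik* (0.0824). Among the 9 genes themselves the closest profiles were those of *Ptprb* and *Kit*, at 0.275.

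Sequence upstream of the gene start was available for 5 of the 9 genes in the RefSeq table of GRCm38.p6, namely *Car4*, *Apln*, *Emcn*, *Kit* and *Fibin*, and *Aplnr*, *Gpihbp1*, *Plvap* and *Ptprb* were missing from it. The window ran from 250 to 51 bases before the RefSeq start, and 4 motifs known for endothelial or hypoxia-responsive factors were searched on both strands in it and in 32514 promoter windows of this length. The ETS letters AGGAAG were in 23.9% of these windows and the SOX letters ACAAAG in 13.6%. The GATA letters AGATAA were in 8.39% and the hypoxia letters ACGTG in 13.0%. *Apln* held 1 ETS and 1 SOX match, *Emcn* 2 ETS matches and *Kit* 1 ETS match, and *Car4* and *Fibin* held none of the 4. The windows of *Apln*, which fell most with LPS, and of *Emcn*, which fell less, are shown because they held the most matches, 2 each. Capitals mark the matches, where CTTCCT is the ETS motif and, in the same way, CTTTGT the SOX motif as read on the other strand, and a match is a description of letters only. The *Apln* window is chrX:48034904-48035103 on the minus strand and the *Emcn* window chr3:137340828-137341027 on the plus strand.
Apln: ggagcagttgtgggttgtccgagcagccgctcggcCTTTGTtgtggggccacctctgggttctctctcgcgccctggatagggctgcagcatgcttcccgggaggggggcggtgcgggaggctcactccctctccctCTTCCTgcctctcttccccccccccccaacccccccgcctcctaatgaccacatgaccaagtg
Emcn: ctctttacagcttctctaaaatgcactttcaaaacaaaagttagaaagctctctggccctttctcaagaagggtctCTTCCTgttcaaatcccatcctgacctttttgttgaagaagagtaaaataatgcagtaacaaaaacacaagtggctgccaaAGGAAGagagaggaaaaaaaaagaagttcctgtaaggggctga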

How the data were processed

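The authors checked and trimmed the reads (FastQC 0.11.9, Trim Galore), aligned them to GRCm39 with HISAT2 2.2.1, counted them per gene with featureCounts 2.0.1 and deposited raw counts for each of 8 mice. Annotation release, strand setting and handling of multimapping reads were not given in the sources used here. The methods describe 3 sequenced mice per group, whereas the labels and the study's own RNA-seq figure give 2 for the dual treatment. GENCODE M39 gave symbols, positions and exon lengths to 54749 of the 55416 identifiers, and the other 667 held 0.0533% of counts. In R 4.3.3, edgeR 4.0.16 fitted 1 group factor to all 8 libraries (TMM, filterByExpr by group, 5 residual degrees of freedom) and gave quasi-likelihood tests. The SE was taken from log2FC and its F statistic. Calls required a Benjamini-Hochberg adjusted p under 0.05, in place of the study's fold change over 2 with p under 0.05. The latter, with its p read here as unadjusted, was an alternative. The procedure was tested on simulated data. Other alternatives were DESeq2 1.42.0, RLE factors, library size only, scaling to the pan-endothelial list, other filters on low counts, the compared groups only, and omission of each mouse or of LPS mice 6 and 7. Log2 CPM used a prior count of 2. Named were the 9 genes, their pathway partners, at most 4 called genes and the most abundant gene per marker list, and up to 3 near profiles; others are marked. Some pathway genes and a near profile are not reported here. Members and lists were chosen with earlier results of these data known.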

Additional observations from a re-analysis of the deposited data

Results flagged for a closer look

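The 9 identity genes and other named genes were searched for opposite departures from control in the treated groups. Calls were those of edgeR (quasi-likelihood test, Benjamini-Hochberg adjusted p). This held for 3 genes, none of them among the 9, and genes of this kind were not counted over all genes. The rule also required a called difference between the treated groups. In the same fit that difference follows from the departures from control, so it is no separate support. *Pecam1* was lower with LPS (log2FC -1.52, adjusted p = 5.30e-06) and higher with the dual treatment (0.60, adjusted p = 0.0143), a difference between the treated groups of 2.12 (adjusted p = 4.67e-06). *Bcl6b*, which encodes a transcriptional repressor and was chosen after its values were seen, was lower with LPS (-0.80, adjusted p = 0.0173) and higher with the dual treatment (1.32, adjusted p = 0.0103), a difference of 2.12 (adjusted p = 0.000158). *Angpt2* was higher with LPS (0.68, adjusted p = 0.00026) and lower with the dual treatment (-0.95, adjusted p = 0.000869), a difference of -1.63 (adjusted p = 8.83e-06). The *Pecam1* call against control in dual-treated lungs was lost without control mouse 1 or 2 or dual-treated mouse 2, with values between 0.44 and 0.62, and with libraries scaled to the pan-endothelial list its LPS value was 0.33 and that of *Bcl6b* 1.04. The *Bcl6b* call with LPS was lost without control mouse 1 (-0.67), LPS mouse 7 (-0.69) or both LPS mice 6 and 7 (-0.62), its difference between the treated groups was not called under the pan-endothelial scaling (0.49, adjusted p = 0.161), and that with the dual treatment without dual-treated mouse 2 (0.66).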

How the results depend on the processing

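Over the 9 genes, the 3 comparisons and all alternatives, 398 values kept their direction and their side of the threshold, 26 lost and 15 gained a call, and 20 changed sign. For the other named genes the counts were 1671, 65, 87 and 55. The cause was not tested for any of them.

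Scaling to the pan-endothelial list assumes that list to be level. It moved the median log2FC of all genes by 1.85 with LPS, 0.19 with the dual treatment and -1.66 between the treated groups, and the share of called genes that were higher from 49.0, 56.6 and 53.6% to 94.6, 81.3 and 5.33%. With it, 3 of the 9 genes were higher and 2 lower with LPS, and 2 were higher and 5 lower between the treated groups. The log2FC that changed sign were *Car4* 1.82, *Gpihbp1* 1.37, *Emcn* 1.10, *Kit* 0.17, *Pecam1* 0.33, *Cldn5* 1.84, *Esam* 1.63, *Flt1* 1.47, *Tbx2* 0.023, *Prx* 0.40, *Cd93* 0.68, *Bcl6b* 1.04, *Rprml* 0.26, *Lmf1* 1.25, *Car2* 1.36 with LPS. They were *Ramp2* 0.079, *Tie1* 0.026 with the dual treatment. They were also *Car4* -1.59, *Aplnr* -0.37, *Emcn* -1.16, *Ptprb* -0.65, *Kit* -1.06, *Fibin* -0.084, *Cldn5* -1.58, *Flt1* -1.63, *Nos3* -1.28, *Ednrb* -1.17, *Tbx2* -0.58, *Prx* -0.048, *Chst1* -0.18, *Cd93* -0.18, *Lpl* -1.20, *Angpt1* -0.11, *Rprml* -1.57, *Cd36* -0.25, *Lmf1* -0.81 between the treated groups.

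Library size alone moved the medians by -0.28, 0.04 and 0.32 and the shares to 35.6, 63.8 and 71.0%, and gave *Cdh5* -0.13, *Nos3* -0.063 with LPS and *Gpihbp1* 0.087, *Esam* 0.084, *Angptl4* 0.078 between the treated groups. RLE factors gave *Car4* 0.0024, *Cldn5* 0.015 with LPS and *Flt1* -0.0083 between the treated groups, and DESeq2 *Cldn5* 0.0042 with LPS. By fold change over 2 with unadjusted p under 0.05, 7450, 1944 and 6554 genes were called in place of 12346, 2997 and 10960.

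Without LPS mice 6 and 7, where LPS mouse 1 is assumed to vary like the other groups, 3 of the 9 genes were higher and 1 lower between the treated groups, and the changed signs were *Car4* 0.22, *Cldn5* 0.053, *Esam* 0.083, *Nos3* -0.17 with LPS and *Car4* -0.16, *Cldn5* -0.0034, *Flt1* -0.059, *Angptl4* 0.28, *Rprml* -0.67 between the treated groups.

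When 1 mouse was left out, between 7 and 8 of the 9 genes were lower and 0 higher with LPS, between 2 and 5 lower and 0 higher with the dual treatment, and between 4 and 7 higher and 0 lower between the treated groups. Over all genes, 11004 to 12709, 1220 to 3601 and 8673 to 10626 were called. Signs changed with LPS for *Car4* (-0.17 to 0.19), *Cdh5* (-0.021 to 0.28), *Cldn5* (-0.071 to 0.026), *Nos3* (-0.028 to 0.37). Signs changed with the dual treatment for *Car4* (-0.46 to 0.40), *Cldn5* (-0.12 to 0.15), *S1pr1* (-0.28 to 0.64), *Prx* (-0.0092 to 0.24), *Tie1* (-0.60 to 0.14). Signs changed between the treated groups for *Car4* (-0.42 to 0.44), *Aplnr* (-0.034 to 1.98), *Cldn5* (-0.089 to 0.18), *Flt1* (-0.39 to 0.34), *Ednrb* (-0.11 to 0.92), *Angptl4* (-1.19 to 0.29), *Rprml* (-2.18 to 0.94).

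Values relative to the pan-endothelial list carried no test. With *Cdh5* alone as the reference they were *Car4* -0.23, *Apln* -4.25, *Aplnr* -3.52, *Gpihbp1* -0.65, *Plvap* -2.18, *Emcn* -0.89, *Ptprb* -2.39, *Kit* -1.84, *Fibin* -2.31 with LPS. They were *Car4* 0.49, *Apln* 4.05, *Aplnr* 1.56, *Gpihbp1* 0.19, *Plvap* 2.68, *Emcn* 0.92, *Ptprb* 1.36, *Kit* 1.003, *Fibin* 2.02 between the treated groups. With *Pecam1* alone they were *Gpihbp1* 1.03, *Plvap* -0.50, *Emcn* 0.79, *Ptprb* -0.70, *Kit* -0.16, *Fibin* -0.63 with LPS, *Car4* -0.59, *Apln* -1.06, *Aplnr* -2.82, *Gpihbp1* -1.32, *Plvap* -0.36, *Emcn* -0.83, *Ptprb* -1.88, *Kit* -1.69, *Fibin* -1.15 with the dual treatment and *Car4* -2.04, *Apln* 1.51, *Gpihbp1* -2.35, *Plvap* 0.14, *Emcn* -1.62, *Ptprb* -1.18, *Kit* -1.54, *Fibin* -0.52 between the treated groups.

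Depth limits *Apln*, whose LPS values rest on 12 to 21 counts. Mice were assigned to groups at random and their numbers are labels within a group, so the groups were not paired. With 2 dual-treated mice, a value that only 1 of them carries cannot be told from an effect of treatment, and solvent and inhibitor are confounded between the treated groups. Cell numbers were not measured.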
